A study of Homo sapiens with 15 samples.

Results

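Atrial cardiomyocytes that received the short ATRNL1 isoform by lentivirus were compared with atrial cardiomyocytes that received a control lentivirus. Its members were the 3 ATRNL1 lentivirus libraries and the 3 control lentivirus libraries, 6 of the 15 libraries of the series, and every gene of the count table that passed a filter on low counts, 24659 of 58780. The cells came from H7, an established human embryonic stem cell line labelled wild type, and were directed to the atrial fate on day 3 with the retinoids TTNPB at 1 nM and retinoic acid at 100 nM, beside the hedgehog agonist SAG and the WNT inhibitor XAV-939. Spheroids were dissociated on day 17, and both lentiviral arms were selected with puromycin. The other 9 libraries came from cells given a scramble siRNA or either of 2 siRNAs against ATRNL1. They entered this comparison through the filter on low counts, the scaling of library sizes and the shared estimate of the spread. With the 6 lentiviral libraries alone, 22578 genes were tested. The labels give reduced oxygen for the stem cells. For the cardiomyocytes the oxygen level, the insert of the control vector and the days of transduction and harvest were not given in the sources used here. Whether the 3 libraries of an arm were separate cultures is not said, and p-values therefore reflect the spread between libraries, which may be technical.

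ATRNL1 encodes attractin-like 1, a large membrane protein of the attractin family, named for its likeness to attractin (ATRN). Attractin is known from coat colour genetics, where it acts with the agouti protein, the melanocortin receptors and the ubiquitin ligase mahogunin (MGRN1). MGRN1 and MOSMO also take part in lowering hedgehog signalling at the membrane. The study's title places ATRNL1 in atrial fibrillation, and the comparison asked which genes changed when its short isoform was raised in atrial cardiomyocytes.

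Genes of glucose breakdown and of the response to low oxygen rose with the ATRNL1 lentivirus, and genes of DNA replication and mitosis fell. Of 31 hypoxia targets measured, 28 rose and 0 fell, and of 23 glycolysis genes 22 rose and 0 fell. PDK1 and ALDOC were members of both lists, and some other lists share members too. Of 47 genes of DNA replication, 0 rose and 46 fell, and all 41 genes of mitosis measured fell. TXNIP, an inhibitor of glucose uptake, fell 13.5-fold. These counts stand beside a broad background: 4715 genes rose (19.1% of those tested) and 4434 fell (18%), so that 37.1% of all genes were called. A gene was called when its p from the quasi-likelihood test of edgeR, adjusted over all 24659 genes by the Benjamini-Hochberg method, was under 0.05.

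The short isoform (ENST00000609571) is named in the labels as the one packaged. In GENCODE 29 it has 8 exons and 467 codons, against 29 exons and 1379 codons in the full-length transcript (ENST00000355044). From the start codon the first 1348 coding bases of both are the same, which is 32.6% of the full-length coding sequence. The short isoform's last exon starts at chromosome 10, 115171037 (GRCh38, plus strand), and reads past the end of the matching full-length exon at 115171292. The 56 coding bases after that point, at chr10:115171293-115171348, belong to the short isoform alone and are shown because they set its early end, with the stop codon in capitals.
ATRNL1 short isoform, own coding bases: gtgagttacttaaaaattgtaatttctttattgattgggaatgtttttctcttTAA

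ATRNL1 (ENSG00000107518, protein-coding, chromosome 10, 115093365 to 115948992) stood at 29.2, 27.6 and 27.1 CPM (counts per 1000000, with library sizes scaled by TMM factors) in the control libraries and at 636, 927 and 727 CPM in the ATRNL1 lentivirus libraries. Every ATRNL1 lentivirus library was far above every control library, with the second the highest. The gene was 27.3-fold higher (log2 fold change 4.77, SE 0.12, edgeR's adjusted p = 1.28e-19), which checks the labels. The count table has 1 row for the gene, so vector reads, the cells' own short isoform and the full-length isoform were counted together.

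Among relatives and partners, ATRN rose from 157 ± 6.72 to 186 ± 14 CPM (SD, n = 3; log2 fold change 0.24), and MGRN1, its ubiquitin ligase partner, from 22.2 to 31.1 CPM (0.48). RNF157, a ligase related to MGRN1, fell from 12.7 to 8.22 CPM (log2 fold change -0.63). MOSMO fell from 34.5 to 29.4 CPM (log2 fold change -0.23), a call that was lost in 7 of 17 alternative settings, among them 3 of the 6 fits that left out 1 library (control 1, control 3 or ATRNL1 library 3). The melanocortin receptors MC1R and MC4R and the ligands ASIP and AGRP were all under 1 CPM in both arms and were not called. Of the 10 named protein-coding genes tested whose bodies lie within 1 Mb of ATRNL1, 3 were called. The actin-binding ABLIM1 rose (1143 to 2102 CPM, log2 fold change 0.88), whereas the GDNF receptor GFRA1 (66.1 to 52.2 CPM, -0.34) and the neuronal polarity gene SHTN1 (40.2 to 27.5 CPM, -0.54) fell.

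The control libraries held 68931280, 108663135 and 46662214 counts in gene rows and the ATRNL1 lentivirus libraries 98621378, 79237146 and 55976548. The first principal component of the 6 libraries, with 86.3% of the variance, parted the arms. The second, with 8.76%, set ATRNL1 library 2 apart from the other two of its arm (14.6 against -8.85 and -6.06). ATRNL1 libraries differed more among themselves than control libraries did: the median SD of log2 CPM within the arm was 0.131 against 0.0517. Control library 2 lay between the other two in 55.1% of 9641 genes above 8 CPM and ATRNL1 library 3 in 48.9%. In each arm the title of a sample joins the numbers in the titles of the remaining ones, and the columns do not show which library it is. Whether the in-between libraries are mixtures of the others in their arm was not tested and is not stated. If they were, each arm would hold 2 independent libraries, and SDs, SEs and p-values over 3 would be too small. Counts without the in-between library of each arm, 2 against 2, were 3775 higher and 3031 lower. Fold changes also moved with the GC content of a gene's exons. Called genes that rose had a median GC of 52.4%, those that fell 43.7% and uncalled genes 47.2%. The median log2 fold change was -0.15 in the decile of genes with the lowest GC and 0.31 in the decile with the highest. Values with this trend removed stand beside some of the lists below. Some lists given without them moved as well. With the trend removed, 13 fatty acid oxidation genes fell instead of 9, and 5 lysosome and autophagy genes instead of 1. The median log2 fold change went from 0.68 to 0.51 for immediate early genes and from -0.15 to -0.28 for atrial identity genes. The part of the trend in the results was otherwise not tested.

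**Figure D1:**
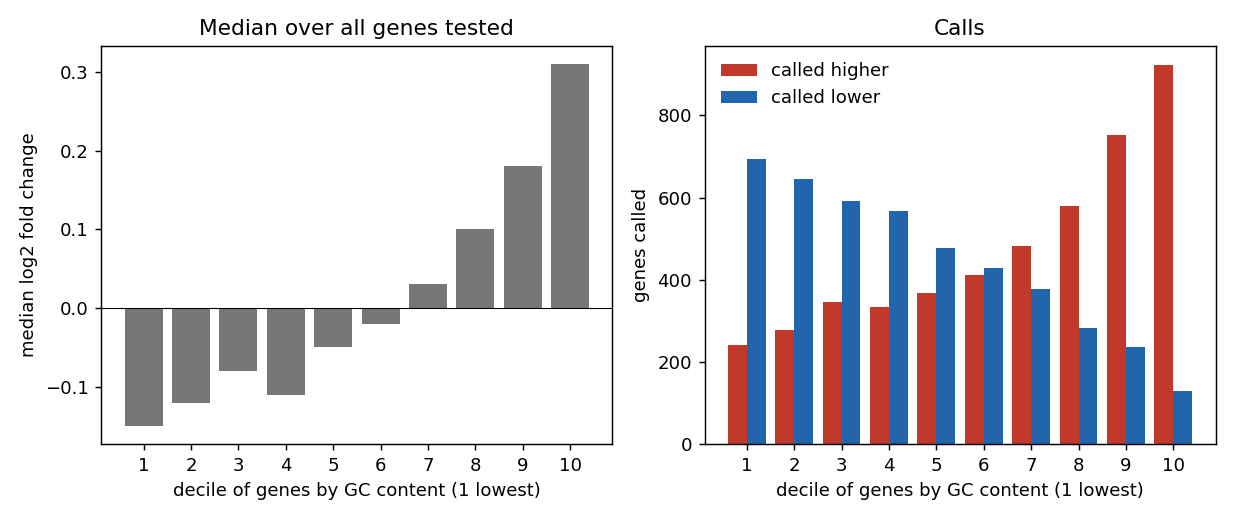
Median log2 fold change (left) and number of genes called (right) in deciles of the 24659 genes by GC content of their exons, from 1 (lowest) to 10 (highest). The median runs from -0.15 to 0.31, and the called genes pass from 241 higher and 693 lower in the lowest decile to 923 higher and 129 lower in the highest.

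The label of atrial cardiomyocytes was held against marker genes. Per kilobase of exon, control libraries held 522 ± 17.5 CPM of TNNT2, 1777 ± 44.8 of the atrial light chain MYL7 and 895 ± 21.1 of the atrial light chain MYL4, and NR2F2, an atrial transcription factor, stood at 10.2 ± 0.13. Levels of other atrial markers varied widely. SLN, which encodes the atrial calcium pump regulator sarcolipin, stood at 0.167 ± 0.0777 CPM per kilobase and NR2F1 at 0.179 ± 0.0421, and NPPA, the atrial natriuretic peptide, at 84.9 ± 8.75. The ventricular light chain MYL2 stood close to MYL7 per kilobase, at 1519 ± 198. Libraries of these cells thus held cardiomyocyte genes and both atrial and ventricular light chains, with the atrial markers SLN and NR2F1 near 0.

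Of the called genes, 1068 were at least 2-fold higher (4.33% of those tested) and 928 at least 2-fold lower (3.76%). At 4-fold or more, 293 were higher and 63 lower. In 10581 genes (42.9%) the libraries of the arms did not overlap. Protein-coding genes were called more often (49.7% of 15200) than long noncoding RNAs (19.3% of 5495) and pseudogenes (13.9% of 2741). For lists of protein-coding genes, 49.7% is thus a share to set beside the calls, though a low one for well-expressed lists. Called genes stood higher, at median levels of 14.3 CPM (risers) and 16.2 CPM (fallers) against 0.669 CPM for uncalled genes. With only genes at a mean of 1 CPM or more tested, 4094 rose and 4209 fell of 14264, a larger share.

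The largest rises, among genes with a mean of at least 1 CPM over the 6 libraries, included low genes of nerve and muscle. CACNA1I, a T-type calcium channel, stood at 0.271, 0.182 and 0.0233 CPM in the controls and at 8.42, 8.1 and 9.91 CPM with the ATRNL1 lentivirus (log2 fold change 5.63, SE 0.27). NDUFA4L2, a mitochondrial protein known as a hypoxia target, went from at most 0.191 to at least 4.35 CPM (4.97), and SNCB, beta-synuclein, from at most 0.142 to at least 2.47 CPM (4.90). The control libraries of all 3 lay near the limit of detection and the arms were far apart, so the folds are less certain than the direction. NDRG1, a stress and hypoxia gene, rose from 2.71, 2.65 and 1.91 to 54.7, 81.2 and 71.8 CPM (log2 fold change 4.80). The growth factor TGFA rose from 1.48, 1.45 and 1.38 to 29, 49.4 and 37.6 CPM (log2 fold change 4.74). The arms did not come near each other in either gene, and ATRNL1 library 2 was the highest. Next in size were CREG2 (4.36), the synaptic vesicle gene SV2B (4.13), the fast skeletal troponin TNNT3 (4.11), ATG9B (3.99), SHISAL1 (3.60), the natriuretic peptide clearance receptor NPR3 (3.58), the transcription factor EGR3 (3.57), MAL (3.54) and the neurofilament NEFM (3.44).

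Among called genes with a mean of at least 1 CPM the largest fall was that of TXNIP, whose product binds thioredoxin and holds down glucose uptake. The gene stood at 255, 275 and 282 CPM in the controls and at 19.5, 20.7 and 19.9 CPM with the ATRNL1 lentivirus. The libraries of each arm lay close together, and the fall was 13.5-fold (log2 fold change -3.76, SE 0.11, edgeR's adjusted p = 1.14e-17). SYT10, a synaptotagmin, fell by 3.28 on the log2 scale and SERTM2 by 2.30. E2F2, an activator of S phase genes, fell by 2.22, RRM2, a subunit of ribonucleotide reductase, by 2.16, FAM111B by 2.08, ESCO2, a cohesin acetyltransferase, by 2.04, CENPU, a centromere protein, by 1.99 and CDC45, of the replicative helicase, by 1.99. MBNL3, a splicing regulator, fell by 2.09, TEX15 by 2.09 and C4orf54 by 2.04. The others were the noncoding genes ENSG00000248115 (-2.48), annotated as antisense, ENSG00000276672 (-2.09) and ENSG00000270977 (-2.01). Whether counting used strand is not stated, so reads of an antisense gene cannot be told from those of its partner.

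Measured in CPM gained or lost, the largest rises were in MYH7 (7535 to 10900 CPM), LDHA, MYL2, ENO1 and PLN. The largest losses were in the mitochondrial mRNAs MT-CO1, MT-CO3, MT-CYB and MT-CO2 and in MYH6 (4521 to 2925 CPM).

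**Figure D2:**
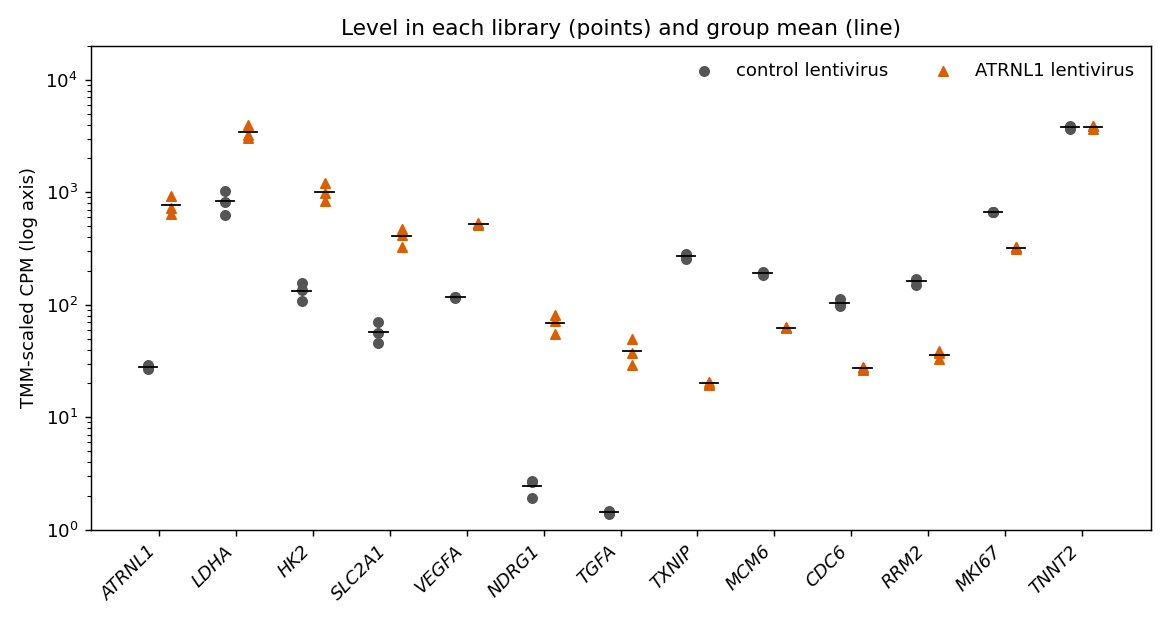
CPM of 13 genes in each control library (circles) and each ATRNL1 lentivirus library (triangles) on a log axis, with the mean of each arm as a line. In ATRNL1 and 6 genes of hypoxia, glycolysis and growth (LDHA, HK2, SLC2A1, VEGFA, NDRG1 and TGFA) every triangle lies above every circle, in TXNIP, MCM6, CDC6, RRM2 and MKI67 below, and TNNT2 stayed at 3787 and 3791 CPM.

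Cells short of oxygen stabilise hypoxia-inducible factors, which bind the letters ACGTG or GCGTG and raise genes for glucose uptake, glycolysis, blood vessel growth and sparing of mitochondria. Of the 31 targets of this kind that were measured, 28 rose, 22 of them at least 2-fold, and the median log2 fold change was 1.44, against 0.00 over all genes tested. With the GC trend removed 27 rose. Their summed level was 2193 to 2830 CPM in the controls and 6323 to 7992 CPM with the ATRNL1 lentivirus. VEGFA, the main growth factor of blood vessels, stood at 118, 118 and 115 CPM in the controls and at 512, 531 and 519 CPM with the ATRNL1 lentivirus. The glucose transporter SLC2A1 stood at 70, 56 and 45.7 CPM and at 328, 472 and 413 CPM. BNIP3, which drives removal of mitochondria, stood at 316, 234 and 154 CPM and at 974, 1269 and 905 CPM. The arms did not overlap in any of the 3, VEGFA varied little within each arm, and in SLC2A1 and BNIP3 control library 1 was the highest of its arm. Their log2 fold changes were 2.15, 2.82 and 2.16, with SEs of 0.09, 0.15 and 0.16.

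Carbonic anhydrase CA9, a textbook marker of hypoxia, rose from 0.335, 0.213 and 0.373 to 2.71, 2.99 and 3 CPM (log2 fold change 3.32), still a low level. The secreted stanniocalcins STC1 (2.96 to 26.8 CPM, 3.16) and STC2 (22.8 to 126 CPM, 2.46), the nuclear receptor RORA (60.7 to 328 CPM, 2.43) and the regulator of fructose bisphosphate PFKFB4 (3.75 to 17.6 CPM, 2.21) rose as well. The oxygen sensors themselves were higher: EGLN3 rose from 102 to 347 CPM (1.76) and EGLN1 from 160 to 413 CPM (1.37). Collagen-modifying enzymes that are also hypoxia targets rose, with P4HA1 at 1.24, P4HA2 at 1.54 and LOX at 1.96 on the log2 scale. The oxidoreductase ERO1A rose from 126 to 466 CPM (1.88) and the mitophagy receptor BNIP3L from 160 to 363 CPM (1.18). The 3 members that were not called were ANKRD37 (0.517 and 0.62 CPM), CA12 (0.506 and 0.566 CPM) and CXCR4 (1.05 and 1.04 CPM).

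In glycolysis, 22 of 23 measured genes rose, with a median log2 fold change of 0.96 (0.83 with the GC trend removed, where 21 rose). LDHA, which turns pyruvate into lactate, stood at 1031, 827 and 630 CPM in the controls and at 3021, 3961 and 3237 CPM with the ATRNL1 lentivirus. HK2, the inducible hexokinase, stood at 157, 136 and 107 CPM and at 828, 1221 and 989 CPM. Both genes had control library 3 as the lowest and ATRNL1 library 2 as the highest, and in both the lowest ATRNL1 library was well above the highest control. LDHA was 4.11-fold higher (log2 fold change 2.04, SE 0.13) and HK2 7.6-fold (2.93, SE 0.16). Along the pathway, GPI rose by 1.09 on the log2 scale, PFKP by 1.33, TPI1 by 1.43, GAPDH by 1.32, PGK1 by 1.81, ENO1 by 1.98 and PKM by 0.93. The neuronal enolase ENO2 (2.15) rose more than the muscle enolase ENO3 (0.27), and LDHA more than LDHB (0.34). The lactate exporter SLC16A3 rose from 4.91 to 18.1 CPM (1.84) and SLC16A1 by 0.24. PDK1, a kinase that keeps pyruvate out of mitochondria, rose from 554 to 985 CPM (0.83), and PDK4, at 7.17 and 6.4 CPM, was the member not called.

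The 250 bases before the annotated starts of these genes were searched. Motif shares were counted over whole lists, whatever their members did here. A high share in a list is therefore not a result of the changes seen. Sequences are RefSeq's for GRCh38.p14, and 13768 of the 24659 genes tested had an entry. A gene with several annotated starts was counted if any of its windows held the letters, so such genes had more room for a match. The letters ACGTG, on either strand, were present in 16 of 26 hypoxia targets with an entry (61.5%) and 14 of 22 glycolysis genes (63.6%), against 27% of all genes with an entry. PDK1 and ALDOC held the letters and were counted in both lists. Among all genes at least 2-fold higher the share was 26.3%, near that of all genes, and among mitosis genes, which fell, it was 42.9%. With GCGTG counted as well, the shares were 84.6% of hypoxia targets and 81.8% of glycolysis genes, against 60.6% of all genes with an entry and 56.2% of those at least 2-fold higher. SLC2A1 and ENO1 were among the members without ACGTG in any window, which says nothing of sites elsewhere. The windows of CA9, BNIP3 and LDHA are shown for a low, a middle and a high member, written 5′ to 3′ on the gene's strand and ending at the base before its first annotated start, with ACGTG or its reverse complement in capitals. The window of a second annotated LDHA start held 0 matches. A match is a string of letters and not a measured binding site.
CA9 (chr9:35673678-35673927, plus strand): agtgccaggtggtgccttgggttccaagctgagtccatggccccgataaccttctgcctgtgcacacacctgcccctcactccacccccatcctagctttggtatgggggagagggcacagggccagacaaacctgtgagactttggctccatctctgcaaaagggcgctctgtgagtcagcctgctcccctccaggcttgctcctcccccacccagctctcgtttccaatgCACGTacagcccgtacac
BNIP3 (chr10:131981924-131982173, minus strand): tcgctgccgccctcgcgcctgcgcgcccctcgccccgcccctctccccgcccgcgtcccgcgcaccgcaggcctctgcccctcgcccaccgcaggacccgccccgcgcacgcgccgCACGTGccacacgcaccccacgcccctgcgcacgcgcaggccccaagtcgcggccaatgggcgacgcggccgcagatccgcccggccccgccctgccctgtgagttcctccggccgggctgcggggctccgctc
LDHA (chr11:18394313-18394562, plus strand): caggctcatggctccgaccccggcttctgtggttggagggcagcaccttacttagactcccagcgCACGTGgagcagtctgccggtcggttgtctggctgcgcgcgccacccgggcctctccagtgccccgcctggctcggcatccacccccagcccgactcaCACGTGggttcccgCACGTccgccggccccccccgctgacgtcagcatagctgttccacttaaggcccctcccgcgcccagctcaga

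TXNIP is known for a pair of E-box-like elements that carry its response to glucose. The letters CACGNG, any 5 bases and CACGNG again, on either strand, were present in 14 of the 13768 genes with an entry (0.102%). TXNIP was among them. Of genes with an entry, 2 of 619 at least 2-fold higher held the pattern (0.323%), and 1 of 509 at least 2-fold lower (0.196%). Whether the pattern had a part in the fall of TXNIP was not tested. The window of the first annotated TXNIP start is shown, with the pattern in capitals. It was chosen because TXNIP had the largest fall among called genes with a mean of at least 1 CPM. The window of a second TXNIP start held 0 matches.
TXNIP (chr1:145996580-145996829, minus strand): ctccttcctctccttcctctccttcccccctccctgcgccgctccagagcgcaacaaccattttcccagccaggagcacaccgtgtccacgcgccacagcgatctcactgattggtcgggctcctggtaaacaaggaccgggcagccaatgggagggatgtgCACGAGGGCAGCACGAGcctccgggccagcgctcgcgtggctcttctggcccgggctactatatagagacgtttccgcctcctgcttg

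**Figure D3:**
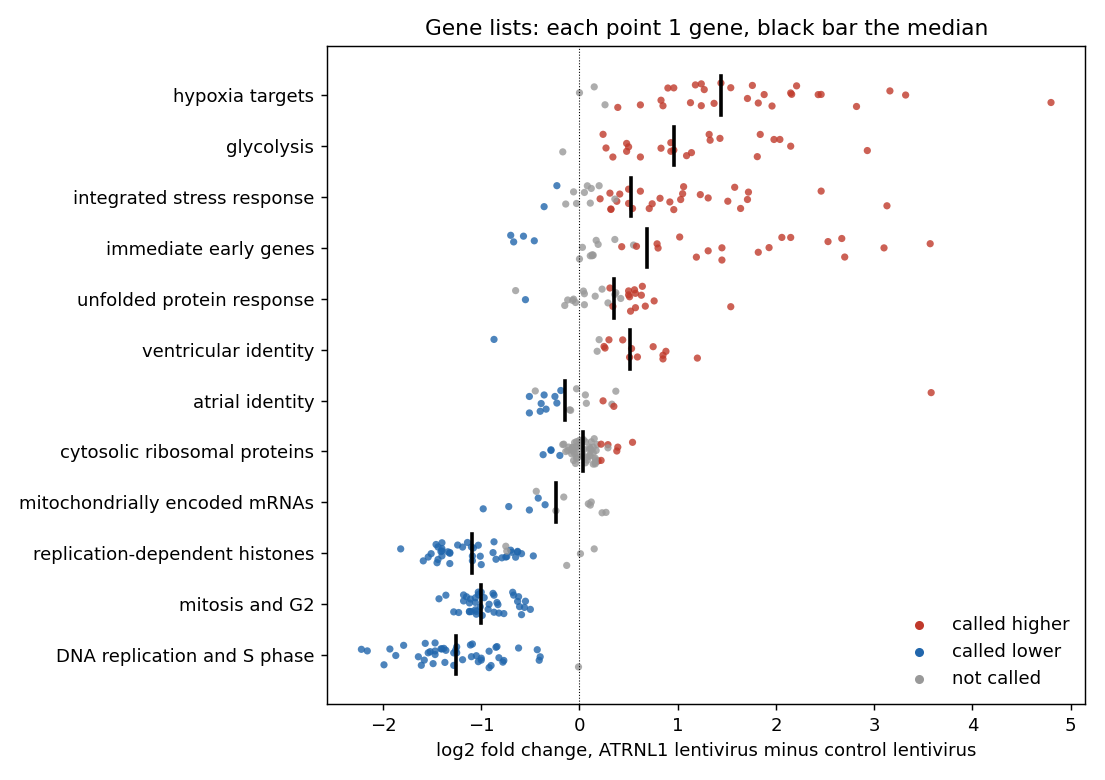
Log2 fold change of each measured gene (points) in 12 gene lists, with the list median as a black bar. Called rises are red, called falls blue and uncalled genes grey. The bars of hypoxia targets (1.44) and glycolysis (0.96) lie to the right of 0, those of DNA replication (-1.26), histones (-1.09) and mitosis (-1.00) to the left, and cytosolic ribosomal proteins at 0.04.

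Copying of DNA uses the MCM helicase, the polymerases and their clamp, and enzymes that make nucleotides, most of them raised by E2F factors as cells enter S phase. Of 47 such genes, 46 fell, 33 of them at least 2-fold, with a median log2 fold change of -1.26 (-1.33 with the GC trend removed, where 46 fell). RPA1, at 111 and 110 CPM, was the one not called. In bulk RNA, fewer cycling cells and less of each mRNA per cell cannot be told apart. MCM6, of the helicase, stood at 197, 191 and 182 CPM in the controls and at 61.5, 62.8 and 62.6 CPM with the ATRNL1 lentivirus. CDC6, which loads the helicase, stood at 112, 101 and 97.7 CPM and at 27.9, 26.2 and 27.5 CPM. RRM2 stood at 169, 165 and 149 CPM and at 36.9, 38.5 and 33 CPM. No library overlapped between the arms in any of the 3, and the ATRNL1 lentivirus libraries lay close together. Their log2 fold changes were -1.61, -1.93 and -2.16, with SEs of 0.09, 0.08 and 0.19. PCNA, the polymerase clamp, fell by 1.49, the nucleotide enzyme TK1 by 1.52, the origin factor ORC1 by 1.57, the chromatin assembly subunit CHAF1B by 1.79 and MCM10 by 1.87 on the log2 scale. The smallest called falls were in SLBP (-0.40), POLD1 (-0.41) and RPA2 (-0.43).

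All 41 mitosis genes measured fell, with log2 fold changes from -1.43 (MYBL2) to -0.50 (CDC20) and a median of -1.00, and all 41 fell with the GC trend removed. MKI67, the proliferation marker Ki-67, stood at 665, 664 and 669 CPM in the controls and at 311, 326 and 328 CPM with the ATRNL1 lentivirus. The control libraries differed by less than 1% of their mean, and all 3 ATRNL1 lentivirus libraries were under the lowest of them. ANLN, which builds the cleavage furrow, fell from 955 to 422 CPM (-1.18), TOP2A, which untangles DNA, from 1402 to 765 CPM (-0.87), and the mitotic kinase CDK1 from 242 to 112 CPM (-1.11). Mitosis genes remained well expressed with the ATRNL1 lentivirus, with a summed level of 4373 to 4832 CPM against 8492 to 9073 CPM in the controls.

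Of 45 replication-dependent histone genes measured, 40 fell and 0 rose, with a median of -1.09, among them H1-5 (143 to 54.5 CPM, -1.40) and H2AC4 (7.23 to 2.09 CPM, -1.82). Those not called included H2AC6, H2BC5 and H2BC21, which are also transcribed outside S phase with polyA tails (0.15, -0.13 and 0.01). Histone genes are near-identical copies, so reads could be split among them. The labels name polyA RNA but a ribosomal depletion protocol, so how histone mRNAs without a tail were captured is not known.

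An E2F motif (TTTGGCGC, TTTCCCGC, TTTCGCGC or TTTGCCGC, either strand, overlaps allowed) was present in the window of 15 of 39 replication genes with an entry (38.5%), against 12% of all genes at least 2-fold lower and 5.01% of all genes with an entry. The replication list too was counted whole, whatever its members did here. The MCM6 window holds 2 stretches in which motifs on both strands overlap, in capitals.
MCM6 (chr2:135876444-135876693, minus strand): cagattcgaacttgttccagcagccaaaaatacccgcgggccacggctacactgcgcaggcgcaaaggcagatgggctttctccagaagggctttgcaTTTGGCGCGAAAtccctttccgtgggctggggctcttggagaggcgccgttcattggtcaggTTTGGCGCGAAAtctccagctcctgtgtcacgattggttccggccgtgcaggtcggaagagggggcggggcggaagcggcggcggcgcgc

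Immediate early genes answer growth factor and stress signals within minutes. Of 32 measured, 18 rose and 4 fell, with a median log2 fold change of 0.68. NR4A3, an orphan nuclear receptor, stood at 7.67, 7.29 and 7 CPM in the controls and at 41.4, 57.4 and 43.9 CPM with the ATRNL1 lentivirus (6.49-fold). EGR1 stood at 7.19, 8.25 and 9.24 CPM and at 27.7, 47.1 and 34.5 CPM (2.15, SE 0.13). The arms were far apart in both genes, with ATRNL1 library 2 the highest. FOS rose from 1.33 to 5.67 CPM (2.06), FOSB from 0.39 to 3.29 CPM (3.10) and MYC from 0.425 to 1.58 CPM (1.93), all from low levels, and JUN was not called (0.13). The feedback inhibitors of MAP kinase signalling SPRY4 (-0.67) and DUSP6 (-0.46) fell, whereas DUSP5 rose (0.79).

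Among 52 growth factors and receptors measured, 20 rose and 11 fell, and in the 2 against 2 fit 7 fell. Ligands of the epidermal growth factor receptor rose together with TGFA: AREG from 6.25, 7.11 and 6.14 to 25, 33.2 and 24.1 CPM (2.07) and EREG from 3.03, 2.5 and 2.31 to 10.1, 14.2 and 9.99 CPM (2.12). The lowest ATRNL1 lentivirus library was above the highest control in each. HBEGF (49.5 and 41.1 CPM), BTC and EPGN were not called. The receptors moved otherwise: EGFR fell from 8.11 to 5.53 CPM (-0.55), ERBB4 fell from 270 to 225 CPM (-0.26), ERBB3 rose from 12.8 to 17.8 CPM (0.49) and ERBB2 was not called. The insulin-like growth factor receptor IGF1R rose from 269 to 633 CPM (1.23), the stem cell factor receptor KIT from 4.94 to 16.8 CPM (1.77), and FGF2 fell from 16.9 to 8.61 CPM (-0.97).

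The integrated stress response slows protein synthesis and raises ATF4 targets. Of 38 of its genes measured, 27 rose and 2 fell, with a median of 0.52 (0.50 with the GC trend removed). NUPR1 rose from 0.416 to 3.44 CPM (3.13), the death-linked factor DDIT3 from 2.95 to 9.7 CPM (1.72) and the pseudokinase TRIB3 from 2.48 to 7.72 CPM (1.64). ATF3 stood at 33.8, 32.2 and 30.1 CPM in the controls and at 76.4, 83.1 and 78.2 CPM with the ATRNL1 lentivirus (1.31), with no overlap, and ATF4 itself rose by 0.32. Among the genes of serine synthesis PHGDH (-0.36) and PSPH (-0.23) fell and PSAT1 was not called. These were the list's only falls, and 0 or 1 gene of the list fell whichever library was left out. Of 30 genes of the unfolded protein response, 14 rose and 1 fell, with a median of 0.35. The share called was 50%, near the 49.7% of all protein-coding genes. HERPUD1 rose from 27.4 to 79.6 CPM (1.54), and HSPA5, the main chaperone of the endoplasmic reticulum, stood at 491, 498 and 503 CPM and at 686, 1005 and 836 CPM (0.76). ATRNL1 library 2 was the highest in both genes, and without it 9 genes of the list rose. Cytosolic heat shock genes were split, with 8 higher and 9 lower of 28. HSF1, the factor that drives them, rose from 14.5 to 33 CPM (1.19), while the abundant chaperones HSPA8 (834 to 458 CPM, -0.86) and HSP90AA1 (2025 to 1325 CPM, -0.61) fell.

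Of 37 genes that make cholesterol and fatty acids, 18 rose and 6 fell (median 0.18). INSIG1, a sterol sensor, rose from 34.8, 31.1 and 29.5 to 81.4, 111 and 88.4 CPM (1.56), DHCR7, the last enzyme of one branch of cholesterol synthesis, by 1.47, and the desaturase SCD from 468 to 863 CPM (0.88). ME1 (-0.86), TMEM97 (-0.77), ELOVL5 (-0.61) and ELOVL6 (-0.55) fell. Of 35 genes of fatty acid oxidation, 8 rose and 9 fell, so that 48.6% were called, near the 49.7% of protein-coding genes. The regulators PPARA (104 to 207 CPM, 0.99) and PPARGC1A (238 to 443 CPM, 0.89) and the lipid droplet coat PLIN2 (51.5 to 106 CPM, 1.04) rose, while the carriers SLC25A20 (-0.78) and CPT2 (-0.56) fell.

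Of 55 nuclear genes of the respiratory chain 11 rose and 11 fell (40% called, against 49.7% of protein-coding genes), with a median of 0.03. Of these, 6 fell without ATRNL1 library 1, 4 fell without ATRNL1 library 3, and 1 fell in the 2 against 2 fit. Of 13 mitochondrially encoded mRNAs, 0 rose and 5 fell, with a median of -0.24. MT-CO3 fell from 5582, 6699 and 7345 CPM to 3363, 4764 and 3824 CPM (-0.72), and the arms did not overlap. The calls of MT-CO1, MT-CO2, MT-CYB and MT-ATP8 each ended without at least 2 of the single libraries, so that 2 of the 13 fell without control library 3 or ATRNL1 library 3, and 1 fell without ATRNL1 library 1. Mitochondrial genes held 5.15% to 6.64% of counts in the controls and 4.1% to 5.43% with the ATRNL1 lentivirus. Of 61 cytosolic ribosomal proteins 7 rose and 4 fell, with log2 fold changes from -0.37 to 0.54. These small differences depended on single libraries: 19 rose without ATRNL1 library 1 and 13 fell without ATRNL1 library 2, and 11 fell with the GC trend removed. The number that rose was 4 without control library 3, and the number that fell was 1 without control library 1, control library 2 or ATRNL1 library 3 and 2 without ATRNL1 library 1.

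Heart muscle genes moved in both directions. In the thick filament 8 of 17 measured genes rose and 5 fell, and in the thin filament and Z-disc 17 of 36 rose and 5 fell. Without control library 3 or ATRNL1 library 1, 3 thick filament genes fell. MYH7, the slow myosin of ventricle, stood at 6851, 7618 and 8137 CPM in the controls and at 10372, 10674 and 11654 CPM with the ATRNL1 lentivirus (log2 fold change 0.53, SE 0.08, edgeR's adjusted p = 1.02e-05). MYH6, the fast myosin of atrium, stood at 4587, 4550 and 4426 CPM and at 2916, 2697 and 3161 CPM (-0.63, SE 0.11, edgeR's adjusted p = 4.67e-05). The arms did not overlap in either gene, and they moved in opposite directions, although the genes are close copies and some reads may be shared. The ventricular light chain MYL2 rose from 2069 to 3806 CPM (0.88), and the atrial light chains MYL7 (2590 to 2023 CPM, -0.36) and MYL4 (1465 to 1111 CPM, -0.40) fell. The call of MYL4 ended in 5 of the 6 fits that left out a library, at -0.37 to -0.41. MYH7B (1.10) and MYBPC3 (0.36) rose, the last only to 0.07 with the GC trend removed, where its call was lost. TTN and MYL3 were not called.

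TNNI3, the adult cardiac troponin I, stood at 23.6, 27.4 and 29.6 CPM in the controls and at 61.4, 67.3 and 65.6 CPM with the ATRNL1 lentivirus (1.27, SE 0.10). The fetal form TNNI1 rose from 589 to 848 CPM (0.52), so both forms were higher, and every ATRNL1 lentivirus library of TNNI3 was above every control. TNNT2 (0.00), ACTC1 (0.15) and TPM1 (0.07) were not called, while XIRP2 (1.36), ACTA1 (0.79), DES (0.57) and TCAP (0.90) rose and SYNPO2 (-0.97), NEB (-0.91) and PDLIM5 (-0.49) fell.

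Genes that mark ventricular muscle rose and those that mark atrial muscle fell more often than they rose. Of 15 ventricular identity genes 12 rose and 1 fell, with a median of 0.51, and with the GC trend removed 9 rose and the median was 0.33. LBH (139 to 319 CPM, 1.20), HEY2 (46.8 to 84.4 CPM, 0.85) and the gap junction gene GJA1 were among the risers, and CORIN, the protease that activates natriuretic peptides, fell from 823, 803 and 781 to 435, 447 and 432 CPM (-0.87). IRX4, a ventricular repressor of atrial genes, was at 0.26, but at -0.21 with the GC trend removed. Of 20 atrial identity genes 3 rose and 9 fell, with a median of -0.15, while 5 fell without control library 2 or control library 3, and 4 fell without ATRNL1 library 1. The connexin GJA5 (-0.51) and TBX5 (-0.23) fell, and NPPA (95.1 and 99.5 CPM) and NR2F2 (65.8 and 64.6 CPM) were not called. NPR3 rose from 0.861, 0.861 and 0.933 to 8.78, 12.9 and 9.97 CPM (3.58). Of 31 cardiac transcription factors 19 rose and 4 fell, and with the GC trend removed 11 rose. NKX2-5 was at 0.26 and, with the trend removed, at -0.15. MYOCD (846 to 594 CPM, -0.51) and MEF2C (-0.35) fell.

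Of 59 genes at atrial fibrillation loci 20 rose and 18 fell, with a median of 0.04, and 10 fell in the 2 against 2 fit. Among the pacemaker genes 4 rose and 5 fell of 14: HCN2 rose from 2.12, 2.26 and 1.91 to 6.42, 7.17 and 9.3 CPM (1.83), with no overlap, HCN4 fell from 254 to 200 CPM (-0.34) and SHOX2 fell by 0.63 on the log2 scale from under 2 CPM. Without ATRNL1 library 3, 3 pacemaker genes fell.

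**Figure D4:**
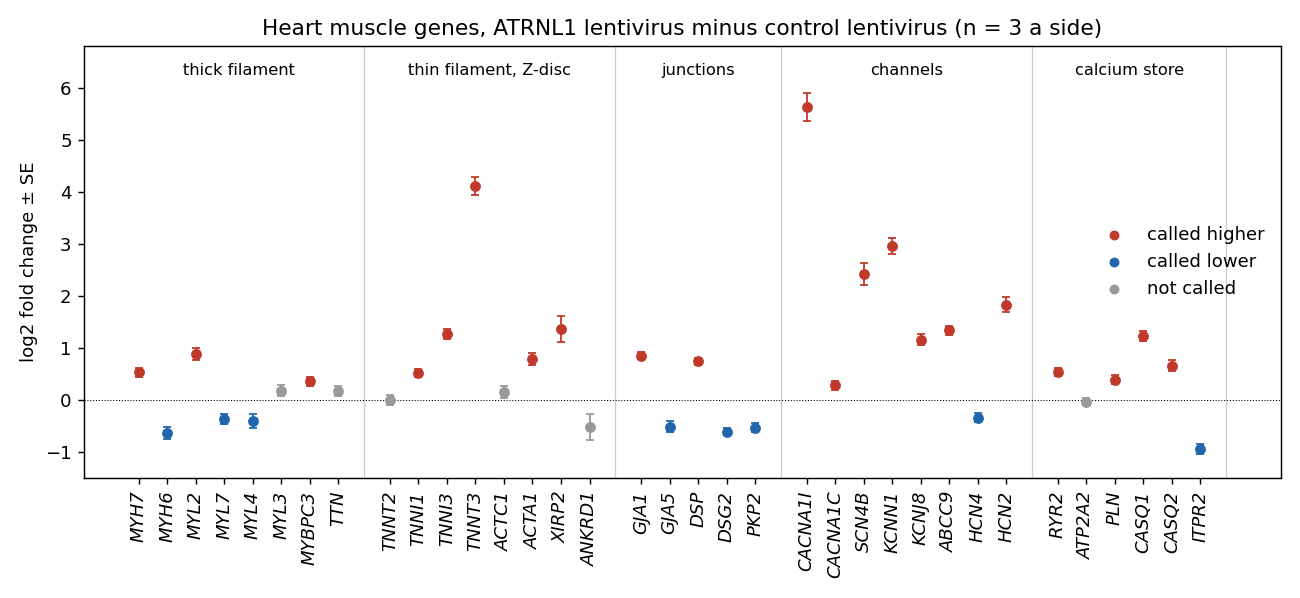
Log2 fold change with its standard error for 35 heart muscle genes in 5 groups, 3 libraries a side. MYH7, MYL2, TNNI3, GJA1, CACNA1I, KCNN1 and HCN2 lie above 0 and MYH6, MYL7, GJA5, DSG2, PKP2, HCN4 and ITPR2 below, while TNNT2, ACTC1, TTN and ATP2A2 were not called.

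Ion channel genes rose more often than they fell. Of 27 potassium channel genes 12 rose and 3 fell, and of 23 sodium and calcium channel genes 13 rose and 4 fell, with medians of 0.33 and 0.48 (0.17 and 0.29 with the GC trend removed). The calcium-activated channel KCNN1 stood at 1.04, 1.12 and 1.61 CPM in the controls and at 8.25, 9.06 and 11.4 CPM with the ATRNL1 lentivirus (2.96, SE 0.15). Subunits of the ATP-sensitive channel rose: ABCC9 from 14.7 to 37.2 CPM (1.34), KCNJ8 from 9.77 to 21.8 CPM (1.16) and KCNJ11 from 2.1 to 5.57 CPM (1.38). None of the KCNN1 libraries overlapped between the arms. The sodium channel beta subunits SCN4B (0.685 to 3.42 CPM, 2.42) and SCN2B (5.91 to 13.7 CPM, 1.22) rose. The L-type channel CACNA1C rose by 0.28 and CACNA1D, its atrial and nodal relative, fell by 0.50. The atrial channels KCNA5 and KCNJ3 were not called.

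Of 35 calcium handling genes 13 rose and 9 fell. The release channel RYR2 stood at 1423, 1394 and 1381 CPM in the controls and at 1931, 2126 and 2044 CPM with the ATRNL1 lentivirus (0.54, SE 0.07), with no overlap. The store proteins CASQ1 (42.9 to 101 CPM, 1.23), CASQ2 (16.1 to 25.3 CPM, 0.66) and HRC (223 to 432 CPM, 0.95) and the pump inhibitor PLN (3438 to 4518 CPM, 0.39) rose. The inositol trisphosphate receptors ITPR2 (-0.94) and ITPR1 (-0.70), the calmodulin genes CALM2 (-0.64) and CALM3 (-0.50) and the kinase CAMK2D (-0.44) fell, and the pump ATP2A2 was not called. At the intercalated disc 5 of 20 genes rose and 10 fell. GJA1, the main ventricular connexin, rose from 135, 143 and 149 to 237, 295 and 237 CPM (0.85), and DSP, desmoplakin, from 1231, 1224 and 1269 to 1942, 2222 and 2070 CPM (0.74). Both were higher in every ATRNL1 lentivirus library, whereas the desmosomal partners PKP2 (948 to 657 CPM, -0.53), DSG2 (-0.61) and DSC2 (-0.42) fell. Without control library 3, ATRNL1 library 1 or ATRNL1 library 3, 6 genes of the disc list fell.

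Matrix genes rose more often than they fell, 26 against 7 of 50. Enzymes that modify and cross-link collagen were among the risers, with PLOD1 at 1.33, LOXL2 at 1.01 and the hypoxia targets P4HA1, P4HA2 and LOX above. The largest folds were in genes at very low levels, BGN (0.0198 to 0.199 CPM, 3.22) and ELN (0.028 to 0.129 CPM, 2.05). TGFB3, a transforming growth factor, stood at 20.2, 20.9 and 19.7 CPM in the controls and at 6.97, 7.06 and 6.49 CPM with the ATRNL1 lentivirus (-1.56, SE 0.13). The arms did not overlap, while THBS1 rose from 136 to 255 CPM (0.90). Of 40 collagen genes 17 rose and 5 fell with a median of 0.25, but with the GC trend removed 10 rose and 7 fell with a median of -0.04. The number of collagens that fell was 2 without control library 2 and 3 without control library 1, control library 3, ATRNL1 library 2 or ATRNL1 library 3.

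The remaining lists moved in mixed ways. Shares called were 52.6% for NF-kB targets and cytokines, 50% for natriuretic and hypertrophy genes and 47.4% for lysosome and autophagy genes. They were 43.2% for developmental pathway targets and 40% for imprinted genes. These lay near or below the 49.7% of protein-coding genes, itself a low mark for well-expressed lists. The other lists here ran from 62.1% to 72.4%. Lysosome and autophagy genes rose in 17 and fell in 1 of 38, with the autophagy receptor SQSTM1 the largest (24.1 to 47.9 CPM, 0.99), and 11 rose in the 2 against 2 fit. Ubiquitin ligases of muscle wasting and their regulators rose in 11 and fell in 1 of 17, among them TRIM63 (172 to 283 CPM, 0.72), FBXO32 (425 to 604 CPM, 0.51) and their activator FOXO3 (66.6 to 127 CPM, 0.94). Interferon and antigen presentation genes fell in 18 and rose in 9 of 43, with B2M at -0.52 and PARP14 at -0.53 lower and HLA-C at 0.87 higher. Targets of p53 rose in 12 and fell in 6 of 29, with CDKN1A, the cell cycle inhibitor, at 0.40 (70.7 to 93 CPM) and MDM2 not called, and 3 of them fell without ATRNL1 library 1. Oxidative stress genes rose in 11 and fell in 10 of 29, NF-kB targets and cytokines rose in 7 and fell in 3 of 19, and developmental pathway targets rose in 10 and fell in 6 of 37. With the GC trend removed the first 2 of these had 7 and 4 risers, and 6 oxidative stress genes rose without control library 1. The number of NF-kB targets that fell was 1 without ATRNL1 library 1 and 2 without control library 1 or control library 2. In the retinoid pathway 9 rose and 7 fell of 25, with the trend removed 5 rose, and 4 fell without control library 3 or ATRNL1 library 3. DHRS3, which turns retinal back to retinol, rose from 7.67 to 31.2 CPM (2.02), and RDH10, which makes retinal, fell from 162 to 90.4 CPM (-0.84). Neurite and synapse genes rose in 14 and fell in 16 of 47, with CNTN1 at 1.10, and 10 fell in the 2 against 2 fit. Imprinted genes rose in 6 and fell in 4 of 25. Natriuretic and hypertrophy genes rose in 5 and fell in 3 of 16, with NPPB not called, and 1 fell without control library 1, control library 2, ATRNL1 library 1 or ATRNL1 library 3.

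Markers of other cell types were low beside those of heart muscle. The summed level of 8 cardiomyocyte markers was 34704 to 38600 CPM in the controls and 37788 to 41256 CPM with the ATRNL1 lentivirus. Fibroblast markers (6 of 8 measured) summed to 64.6 to 67 and 67.2 to 84.1 CPM, with DCN and LUM under 1 CPM. Smooth muscle and pericyte markers (8 of 8) summed to 959 to 982 and 794 to 874 CPM, and fetal heart muscle also expresses several of them. Among them TAGLN (-1.10) and RGS5 (-0.47) were lower and KCNJ8 (1.16) and CNN1 (0.31) higher. The CNN1 call was lost with the GC trend removed (0.06), without control library 1 and in the 2 against 2 fit, where the RGS5 call was lost too. ACTA2 was lower in every ATRNL1 lentivirus library (314 to 232 CPM, -0.44) but not called. It was called in the fit on the 6 lentiviral libraries alone. Endothelial markers (3 of 9 measured) summed to 62.3 to 73 and 59.5 to 65.3 CPM. KDR, which fell (66.4 to 51 CPM, -0.38), made up most of it, NPR3 rose (0.885 to 10.5 CPM, 3.58), and TEK was under 0.1 CPM. The call of KDR was lost without control library 3, ATRNL1 library 1 or ATRNL1 library 3, and in the 2 against 2 fit. Neural markers (4 of 8) summed to 39 to 43 and 19.9 to 23.2 CPM, carried by MAP2 (-1.11). Pluripotent markers (4 of 8) summed to 12.5 to 13.2 and 8.24 to 9.24 CPM, with POU5F1 at 0.196 and 0.104 CPM. Epicardial markers (6 of 8) summed to 11.6 to 12.4 and 12.3 to 15.5 CPM, and macrophage markers (4 of 8) to 2.63 to 2.86 and 1.79 to 2.45 CPM. Endoderm and liver markers (7 of 9) summed to 42.9 to 45.6 and 37.7 to 49.4 CPM. Skeletal muscle markers (4 of 8) summed to 393 to 399 and 615 to 726 CPM, nearly all of it CKM, which heart also expresses. The part of these cells in the results above was not tested.

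The siRNA libraries lower ATRNL1 against another control, the scramble siRNA, which both siRNA contrasts share and the lentiviral contrast does not. With siRNA-1 3.76% of all genes fell and 5.85% rose, and with siRNA-2 8.48% fell and 9.64% rose. Of the 4715 genes that rose with the ATRNL1 lentivirus, 169 (3.58%) fell with both siRNAs and 281 (5.96%) rose with both. Of the 4434 that fell, 275 (6.2%) rose with both siRNAs and 113 (2.55%) fell with both. Over all genes tested 2.08% fell and 3.71% rose with both. Rises with both siRNAs were more frequent than falls with both among all genes, as among those called with the lentivirus. MYH7 rose with the lentivirus and with both siRNAs (0.49 and 0.83 with siRNA-1 and siRNA-2), as did MYL2 (0.45 and 0.74). Genes called the opposite way with the smallest p were, beside ATRNL1 (-0.74 and -1.61 with the siRNAs), AHNAK2 (2.07 with the lentivirus, -0.42 and -0.60 with the siRNAs), FER1L4 (2.77, -0.86 and -0.55), INSIG1 (1.56, -0.77 and -0.44), NPR3 (3.58, -0.67 and -0.62) and SPAG4 (2.49, -0.40 and -0.52). In the other direction they were MCM6 (-1.61, 0.58 and 0.40), E2F2 (-2.22, 0.80 and 1.06), TCF19 (-1.61, 0.41 and 0.41), WDR76 (-1.52, 0.57 and 0.43), ZWINT (-1.55, 0.41 and 0.39) and CLSPN (-1.90, 0.51 and 0.34). With siRNA-1 and siRNA-2 the medians were 0.06 and 0.08 for hypoxia targets, -0.05 and -0.21 for glycolysis genes and 0.18 and 0.17 for replication genes. The 12 genes called opposite ways were chosen for those calls first and then by their p with the lentivirus. Their directions were thus fixed by the choice, and the sizes of their folds are a description.

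**Figure D5:**
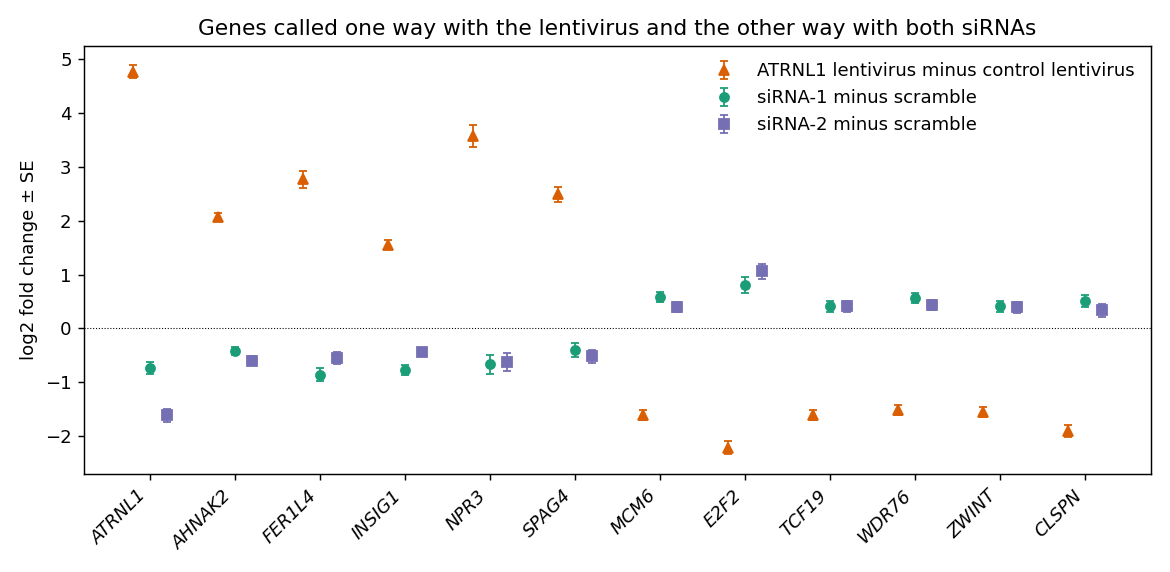
Log2 fold change with its standard error for the 12 genes called opposite ways, for the ATRNL1 lentivirus (triangles), siRNA-1 (circles) and siRNA-2 (squares), each against its own control. The triangles of the first 6 genes lie between 1.56 and 4.77 and their siRNA points below 0, and those of the last 6 between -2.22 and -1.52 with siRNA points between 0.34 and 1.06.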

How the data were processed

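The deposited values are raw counts of reads for each gene, in whole numbers, with 1 column per library. STAR 2.7.9a, DESeq2 1.30.1 and GRCh38 appear in the submitters' processing notes, and the counting program and its use of strand were not given in the sources used here. Gene identifiers were those of GENCODE 29. Rows with a bare number for a gene (649 of 59429, 0.00157% to 0.00176% of counts in the lentiviral libraries) were left out. Columns name the group but not the labelled sample, so library numbers follow the column order and pair nothing.

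Genes were filtered with filterByExpr by group, scaled with TMM and fitted in edgeR 4.0.16 (R 4.3.3) with 1 quasi-likelihood model of 5 group means over 15 libraries. The contrast was ATRNL1 lentivirus minus control lentivirus. The SE is the log2 fold change divided by the square root of F. Named genes were the 15 largest rises and falls among called genes at a mean of 1 CPM or more, the 5 largest CPM changes each way, the attractin family, neighbours of ATRNL1, the leading members of each list by p, and the 6 genes each way called oppositely with both siRNAs. Further list members were named after their values were seen. The 52 lists, the members and the tests were chosen with earlier results of these data known. Alternatives were other scalings, filters and tools (DESeq2 1.42.0, limma 3.58.1), each library left out and, chosen after seeing the data, a removed GC trend (loess) and a 2 against 2 fit. The fit was tested on simulated counts. Some genes are not reported here.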

Additional observations from a re-analysis of the deposited data

How the results depend on the processing

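The main counts were 4715 genes higher and 4434 lower, and every alternative stayed within 1.5 times of both. Without each library in turn they ranged from 4062 to 4912 higher and from 3578 to 4720 lower. Across the planned scalings, filters and tools they ran from 4094 to 5190 higher and from 3988 to 4602 lower. With the GC trend removed, chosen after seeing the data, 4390 were higher and 5050 lower, 46.5% of calls higher against 51.5%, and 7742 calls were shared. The fit of 2 against 2, also chosen after seeing the data, gave 3775 and 3031, with 6558 calls shared. Of 261 single genes followed, 229 were tested under all 17 alternatives, and 203 of these kept their call and direction in each. NKX2-5 (-0.15) and IRX4 (-0.21) changed sign with the GC trend removed, and the cause was not tested. Of 104 list counts, 44 moved by over 1.5 times under some alternative, 16 of them counts above 5. No paired analysis was possible because the columns carry no labelled sample and the titles of the lentiviral arms share no number. Depth limits genes near 1 CPM.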
